A study of Homo sapiens with 6 samples.

Results

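The protein kinase A (PKA) subunits and the CREB factors were described here as a set of 10 genes out of the 62700 in the files: 4 regulatory subunits (*PRKAR1A*, *PRKAR1B*, *PRKAR2A* and *PRKAR2B*), 2 catalytic subunits (*PRKACA* and *PRKACB*), and 4 genes of CREB-dependent transcription (*CREB1*, *ATF1*, *CREM* and the coactivator *CRTC2*). The genes were matched by GENCODE symbol, and all 10 passed the filter of a mean of at least 1 TPM (a level scaled for transcript length and library size, with the same total in each library). The set was selected on this same comparison, because *PRKAR2A* was among the genes with the largest falls and because *CREB1* is the transcription factor that the study placed upstream of *RAB30-DT*. The differences between groups in these 10 genes are therefore given as a description, without a p-value. Where a member is said to be called or to pass a threshold, this only places it among all tested genes. It is not a test of that member, and neither are the counts of calls under other settings.

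The cells were SK-Hep-1, an established human line from a liver tumour that the study calls endothelial-derived. In these cells the long noncoding RNA *RAB30-DT* was targeted with short hairpin RNA. The 3 knockdown libraries (shRAB30-DT, genotype given as RAB30-DT knockdown) were compared with 3 control libraries (shControl, genotype given as WT). Per the study's methods, stable lines were made with lentiviral vectors and puromycin selection, and it is not stated in the labels whether the libraries of a group came from separate cultures. The methods name knockdown vectors sh1 and sh2, and the sample titles do not say which of them each knockdown library carries. RNA was selected by its poly-A tail, and no drug or hormone that acts on cAMP is named in the labels.

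In resting cells, PKA is held inactive as a tetramer in which a dimer of regulatory subunits blocks a pair of catalytic subunits. Hormones that act through stimulatory G proteins make adenylyl cyclases produce cAMP, which binds the regulatory subunits and frees the catalytic ones. Free catalytic subunits enter the nucleus and phosphorylate CREB1, ATF1 and CREM, which bind the cAMP response element and recruit CREBBP and EP300, while CRTC coactivators join them after dephosphorylation. In the liver this route is known for the response to glucagon and for the induction of gluconeogenic genes.

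Before the members' values, the checks on the libraries are given in short. *RAB30-DT* (chr11:83072052-83107789, plus strand, hg38) stood at 18.16, 11.51 and 13.91 TPM in the control libraries (replicates 1 to 3, the order used throughout) and at 11.94, 10.85 and 6.5 TPM after knockdown. The groups overlapped, the log2 fold change was −0.55 (SE 0.27), the adjusted p in limma with Benjamini-Hochberg adjustment was 0.356, and a two-sided exact permutation test gave p = 0.2, where the smallest value possible with 3 against 3 is 0.1. The study itself reports the knockdown by qPCR in SK-Hep-1 cells, and also in HepG2 and Huh7 cells. The libraries differed in how their values ran with the GC content of genes, with a Spearman rho across genes from −0.606 (control 1) to 0.489 (control 3) and from −0.524 (knockdown 1) to 0.335 (knockdown 3). Differences are therefore also given with each library's GC trend removed. Of the hepatocyte markers, *ALB*, *TTR* and *HNF4A* were at 0 TPM in all 6 libraries, and the sum over the 6 listed markers was 19.74 to 25.07 TPM in control and 28.66 to 38.11 TPM in knockdown libraries. The 5 endothelial markers summed to at most 0.38 TPM with *KDR* at 0, the 5 mesenchymal markers to 4417.01 to 5655.84 TPM, and the 4 leukocyte and blood markers to 28.59 to 66.76 TPM in control and 106.52 to 129.11 TPM in knockdown libraries, with *PTPRC* and *CD3E* at 0. Most of each sum came from a single gene. The hepatocyte sum was mostly *SERPINA1* (18.11 to 23.96 TPM in control, 28.25 to 37.19 TPM in knockdown libraries). The leukocyte and blood sum was almost all *CD68* (28.41 to 66.76 and 106.52 to 129.11 TPM). The mesenchymal sum was mostly *VIM* (means 3883 and 4615 TPM), while *THY1* went the other way (means 130.7 and 89.2 TPM). The part of these marker differences in the results was not tested.

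Short stretches of the *PRKAR2A* message are shown first because a 7-base sequence, GAGTGAA, found earlier in these same data in the 3′UTRs of genes that were lower after knockdown, occurs in *PRKAR2A* and in no 3′UTR of the other 9 genes. The 3 sites lie in the 3′UTR of the canonical transcript (4999 bases; chromosome 3, minus strand, hg38), 3579, 4049 and 4778 bases after the stop codon. Capitals mark the 7 bases.
PRKAR2A site at chr3:48747988-48748017: aggacgtgtgtGAGTGAAataggatatagc
PRKAR2A site at chr3:48747518-48747547: agcagtttaatGAGTGAAttcagcagcaaa
PRKAR2A site at chr3:48746789-48746818: ttaaattcttgGAGTGAAttttattttaat
The same 7 bases occur at 2 places on the plus strand of the annotated exons of *RAB30-DT* itself, the RNA that the knockdown was designed against. The first lies in 5 and the second in 9 of its 19 annotated transcripts. Its exons cover 7523 bases in all, and how often the 7 bases occur in exons of that length was not counted.
RAB30-DT at chr11:83072056-83072085: ggacgcgcccaGAGTGAAggagcaaagggg
RAB30-DT at chr11:83073461-83073490: ctctatgttagGAGTGAAtaaaattaaaaa

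Of the 10 genes, *PRKAR2A* was the one with a large difference, at −2.03 on the log2 scale, and the other 9 differed by less than 0.5 in either direction with the values as deposited (*PRKAR1B* was at 0.52 with the GC trend removed). In all, 6 genes were lower and 4 higher, and the count was again 6 lower with the GC trend removed. One gene, *PRKAR2A*, passed an adjusted p of 0.05 in limma over all 14020 tested genes, where 1.04% of genes passed in either direction, 0.371% as higher and 0.67% as lower. In 3 genes (*PRKAR2A*, *ATF1* and *CRTC2*) all 3 knockdown values were lower than all 3 control values, which was also so in 13.4% of all tested genes, and 23.3% of all tested genes had groups that did not overlap in either direction. These shares are printed as background, and nothing is read from them, since the comparison was used to choose the genes.

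**Figure D1:**
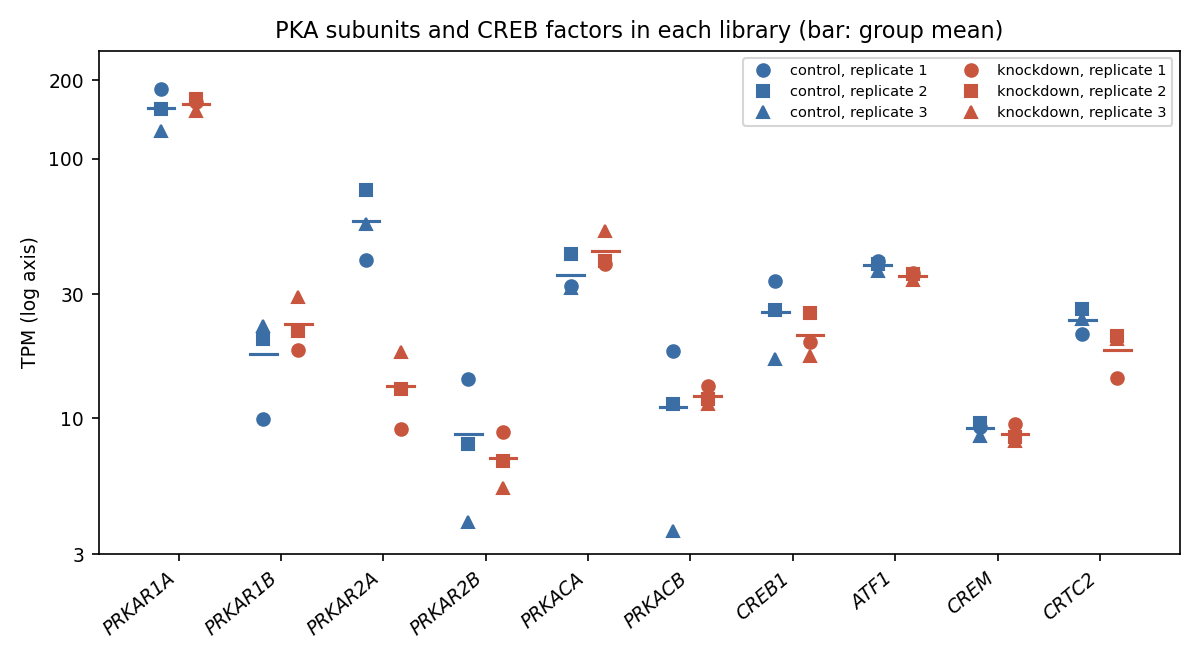
Level of the 10 genes in TPM (log axis) in each of the 3 control (blue) and 3 knockdown (red) libraries, with the replicate number as the marker shape and the group mean as a bar. The *PRKAR2A* values of 9.12 to 18.02 TPM in knockdown libraries lie below the 40.53 to 75.45 TPM of the control libraries, while the groups of most other genes overlap.

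Among the regulatory subunits, *PRKAR2A* encodes RII alpha, the type II subunit that most cells use to tether PKA to A-kinase anchoring proteins. The gene (ENSG00000114302.17) lies on chr3:48744597-48847874, minus strand. The control libraries gave 40.53, 75.45 and 56.18 TPM and the knockdown libraries 9.12, 12.93 and 18.02 TPM. The highest knockdown library was thus below the lowest control library. The means were 57.4 ± 17.5 and 13.4 ± 4.47 TPM (SD, n = 3 each), a control to knockdown ratio of 4.30. The log2 fold change on log2(TPM + 1) was −2.03 (SE 0.30), and it was the 22nd largest fall among the 14020 tested genes. Removing the GC trend gave −2.05 (SE 0.36), and leaving out each library in turn gave −2.25 to −1.80. The adjusted p no longer passed 0.05 when control 2, control 3 or any knockdown library was left out, or when genes of low level were kept in the test.

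*PRKAR1A* encodes RI alpha, the widely expressed type I subunit whose loss frees PKA activity in Carney complex. It lies on chr17:68511780-68551319, plus strand, and had the highest level of the 10 genes in both groups. Its values were 184.62, 154.85 and 128.14 TPM in control and 165.3, 168.99 and 153.03 TPM in knockdown replicates. The knockdown values lay inside the range of the control values, with a log2 fold change of 0.07 (SE 0.17).

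*PRKAR1B* (chr7:549197-727650, minus strand), the type I beta subunit best known from neurons, stood at 9.98, 20.29 and 22.6 TPM in control and at 18.3, 21.66 and 29.32 TPM in knockdown replicates. The groups overlapped, and control 1 lay apart from the other control libraries. The log2 fold change was 0.42 (SE 0.32), and 0.08 to 0.63 with each library left out. Its transcripts are rich in GC (62.1%), and with the GC trend removed the value was 0.52 (SE 0.18). The gene overlaps *DNAAF5* on the opposite strand, which had mean levels of 46.6 TPM in control and 35.4 TPM in knockdown libraries, and whether the counting used strand is not stated.

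*PRKAR2B* (chr7:107044705-107161811, plus strand), the type II beta subunit known from fat and brain, had 14.16, 7.99 and 3.98 TPM in control and 8.86, 6.83 and 5.39 TPM in knockdown replicates. The control libraries alone spanned a 3.56-fold range that held all knockdown values. The log2 fold change of −0.15 (SE 0.39) changed sign among the fits that left out 1 library, from −0.56 to 0.24.

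The regulatory subunits were also described by their share of the summed regulatory TPM. *PRKAR2A* made up 16.26, 29.18 and 26.64% of it in the control libraries and 4.52, 6.15 and 8.76% in the knockdown libraries. The type II subunits together went from 27.6 ± 5.23% to 9.90 ± 1.31% (SD, n = 3 each), and *PRKAR1A* took 64.9 ± 7.95% in control and 78.9 ± 4.01% in knockdown libraries. For each of these shares the groups did not overlap. *PRKAR2B* held 3.55 ± 1.94% and 3.42 ± 0.903% (SD, n = 3 each), with overlapping groups. Shares sum to a fixed whole, and *PRKAR2A* was chosen for its fall. The lower type II share and the higher *PRKAR1A* share are therefore not separate results. The *PRKAR1A* level itself overlapped between groups.

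The summed regulatory level was 210.9 to 258.6 TPM in control and 201.6 to 210.4 TPM in knockdown libraries. Without *PRKAR2A*, it was 182 ± 27.0 and 193 ± 4.87 TPM (SD, n = 3 each) with overlapping groups. The ratio of regulatory to catalytic TPM was 4.929, 4.768 and 5.949 in control and 3.834, 4.018 and 3.217 in knockdown replicates. All knockdown ratios were below all control ratios. *PRKAR2A*, chosen for its fall, is part of the summed level and of this ratio, so their separation is not a separate result. These are ratios of messages, and protein was not measured in these libraries.

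**Figure D2:**
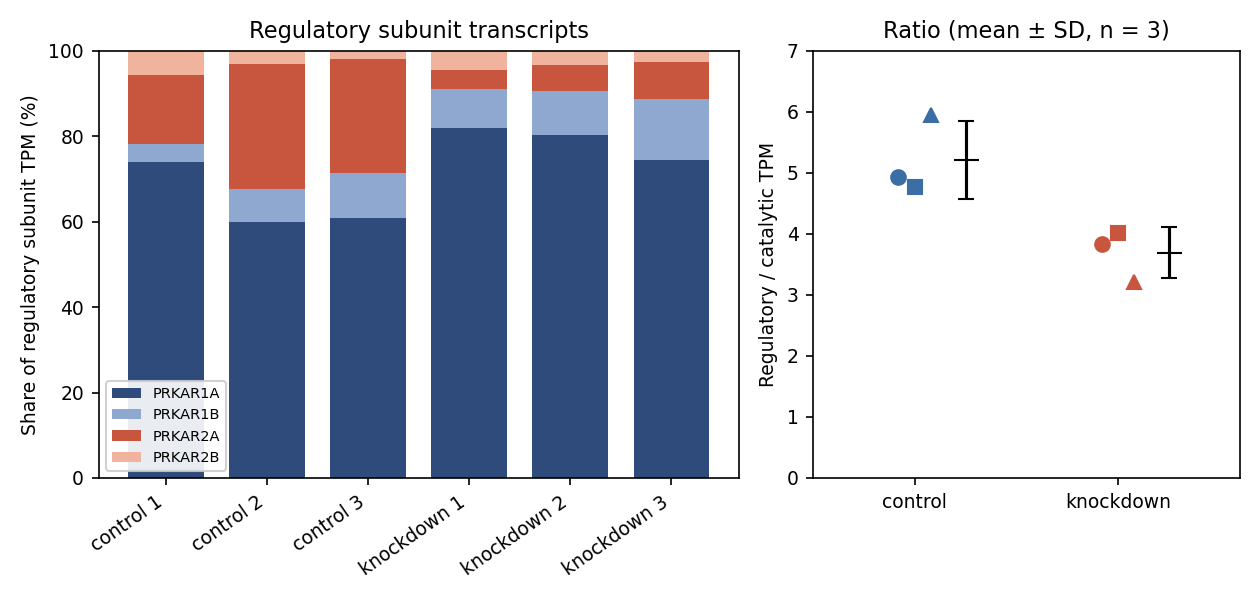
Left, share (%) of each regulatory subunit in the summed TPM of the 4 regulatory subunits in each library. Right, ratio of summed regulatory to summed catalytic TPM, with 1 point per library and the mean ± SD (n = 3) beside it. The *PRKAR2A* share is 16.26 to 29.18% in control and 4.52 to 8.76% in knockdown libraries, and the ratio is 5.22 ± 0.641 and 3.69 ± 0.420. *PRKAR2A* was chosen for its fall and is part of the ratio.

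Of the catalytic subunits, *PRKACA* (chr19:14091688-14118084, minus strand) encodes C alpha, the main catalytic subunit of most tissues. It had 32.38, 42.86 and 31.77 TPM in control and 39.25, 40.49 and 52.57 TPM in knockdown replicates. The groups overlapped through control 2, and knockdown 3 was the highest library. The log2 fold change was 0.30 (SE 0.20), and 0.36 (SE 0.16) with the GC trend removed.

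*PRKACB* (chr1:84078062-84238498, plus strand), which encodes C beta, had 18.2, 11.37 and 3.68 TPM in control and 13.33, 11.88 and 11.39 TPM in knockdown replicates. All knockdown libraries lay within the 4.95-fold range of the control libraries. Its log2 fold change of 0.35 (SE 0.46) ran from −0.23 to 0.79 with each library left out. Its transcripts are poor in GC (35.8%), and the SD of the control values on log2(TPM + 1) went from 1.04 to 0.63 when the GC trend was removed. *PRKACB* contributed 22.4 ± 12.9% of the catalytic TPM in control and 22.0 ± 3.82% in knockdown libraries (SD, n = 3 each).

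*CREB1* (chr2:207529737-207605988, plus strand), the founding CREB factor and, in the study, the factor assigned to the *RAB30-DT* promoter, gave 33.78, 26.19 and 16.86 TPM in the control libraries. The knockdown libraries had 19.73, 25.55 and 17.33 TPM. All knockdown libraries lay inside the control range, and the control libraries spread by more than the groups differed. The means were 25.6 ± 8.48 and 20.9 ± 4.23 TPM (SD, n = 3 each). The log2 fold change was −0.25 (SE 0.28), or −0.29 (SE 0.17) with the GC trend removed, and −0.51 to −0.03 with each library left out. The SD of the control values on the log2 scale went from 0.49 to 0.11 when the GC trend was removed. The gene overlaps *METTL21A* on the opposite strand, with 42.6 TPM in control and 29.5 TPM in knockdown libraries on average.

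*ATF1* (chr12:50763710-50821162, plus strand), the closest relative of CREB1 and its dimer partner, had the most even values of the 10 genes in the control libraries. It stood at 40.36, 39.19 and 36.78 TPM in control and 36.42, 35.86 and 33.96 TPM in knockdown replicates. The groups did not overlap, by a margin from 36.78 to 36.42 TPM. The log2 fold change was −0.13 (SE 0.15), and with the GC trend removed the SD of its control values was larger, at 0.28 against 0.07.

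*CREM* (chr10:35126791-35212958, plus strand), whose promoters yield both activators and the inducible repressor ICER, had 9.3, 9.61 and 8.53 TPM in control and 9.47, 8.48 and 8.18 TPM in knockdown replicates. The groups overlapped and the log2 fold change was −0.06 (SE 0.18). Gene-level values do not separate its activator and repressor forms. The gene overlaps *CUL2* on the opposite strand.

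Together, *CREB1*, *ATF1* and *CREM* had 73.5 ± 10.7 TPM in control and 65.0 ± 5.24 TPM in knockdown libraries (SD, n = 3 each), with overlapping groups. *ATF1* gave 53.3 ± 5.47% of this sum in control and 54.6 ± 2.99% in knockdown libraries. *CREB1* gave 34.2 ± 6.71% and 31.9 ± 4.04%, and *CREM* 12.6 ± 1.3% and 13.4 ± 1.18%, and in each case the groups overlapped.

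*CRTC2* (chr1:153947669-153958615, minus strand) encodes the CREB coactivator that mediates the fasting response in hepatocytes. It had 21.17, 26.38 and 24.16 TPM in control and 14.36, 20.7 and 20.13 TPM in knockdown replicates. No knockdown value reached the lowest control value, and knockdown 1 was the lowest. The means were 23.9 ± 2.61 and 18.4 ± 3.51 TPM (SD, n = 3 each), with a log2 fold change of −0.37 (SE 0.20), or −0.30 (SE 0.13) with the GC trend removed, and −0.46 to −0.21 with each library left out. *CRTC2* was not called.

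**Figure D3:**
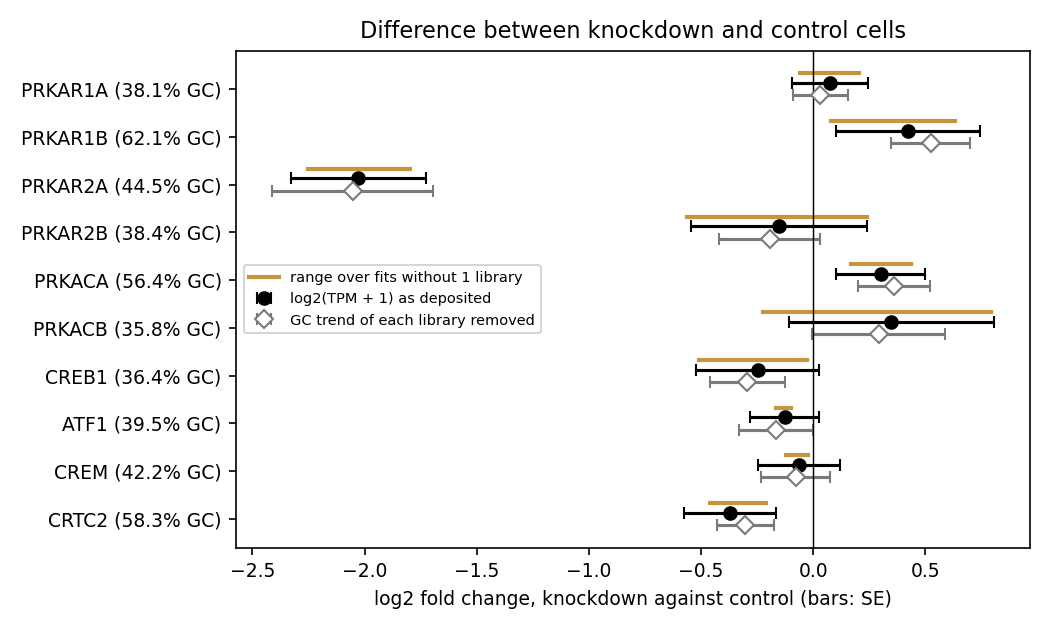
Log2 fold change of each gene, knockdown against control, on log2(TPM + 1) as deposited (filled circles) and with each library's GC trend removed (diamonds), with bars for the SE, and the range over the 6 fits that leave out 1 library (orange line). Labels give the GC content of the exons. *PRKAR2A* is near −2.03 in each version, and the other genes lie between −0.37 and 0.42 as deposited.

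The order of the levels in control cells was *PRKAR1A*, *PRKAR2A*, *ATF1*, *PRKACA*, *CREB1*, *CRTC2*, *PRKAR1B*, *PRKACB*, *CREM* and *PRKAR2B*. Of these, *PRKAR1A* lay above *PRKAR2A* in all libraries, and *PRKAR2A* above *ATF1* by the small step from 40.53 to 40.36 TPM. Each later gene overlapped with the next in the order. In knockdown cells, *PRKAR2A* stood in place 7 of 10, below *CRTC2* and above *PRKACB*, and overlapped with both.

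The genes whose values over the 6 libraries ran most like those of *PRKAR2A*, among the 10428 genes that reached a mean level of 5 TPM, were *HNRNPUL2* (Pearson r = 0.997), *FMC1* (r = 0.995) and *PHF5A* (r = 0.994). With the GC trend removed, the values of r were 0.968, 0.997 and 0.988. For *CREB1* they were *SMAD1* (r = 0.991), *MEIS2* (r = 0.990) and *CNOT2* (r = 0.980), and these fell to 0.869, 0.907 and 0.758 with the GC trend removed. These are descriptions over 6 libraries in which group and base composition vary together with the genes. *FMC1*, the gene of a mitochondrial assembly factor, was at −1.24 on the log2 scale. It was picked for running like *PRKAR2A*, itself chosen for its fall, so this value is not a separate result.

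The genes beside *PRKAR2A* on chromosome 3 were looked up after its value was seen. Of the 6 tested genes within 100 kb, none was called. *IP6K2*, the neighbour downstream, had a log2 fold change of −0.14 (SE 0.16), *SLC25A20*, the mitochondrial carnitine carrier gene on the other side, −0.26 (SE 0.23), and *ARIH2* −0.07 (SE 0.15). *NCKIPSD* was at 0.33 (SE 0.18) and *CELSR3* at 0.12 (SE 0.26). *LINC02585* was at 16.67 TPM in control 2 and listed at 0 in the other 5 libraries. It was the one of the 6 that passed under an alternative, with library weights. That fit gave control 2 a weight of 3, so the call rests on this library. The overlapping antisense gene *PRKAR2A-AS1* had a mean of 0.54 TPM.

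The 7-base sequence shown above was then set beside the values of the 10 genes. Of 11539 tested genes with a canonical 3′UTR of at least 50 bases, 12.5% held 1 or more copies and 0.381%, or 44 genes, held 3 or more, as *PRKAR2A* does. The median among the 43 others with 3 or more copies was −0.16 on the log2 scale, with 27 of them lower and values from −1.33 to 0.64. Against this, the 10093 genes without a copy had a median of −0.05, those with 1 copy −0.14 and those with 2 copies −0.16. *PRKAR2A* was lower than any other gene with as many copies, but it had been chosen for its large fall, so nothing is read from this place. A long 3′UTR holds more 7-base matches, and of the 941 genes with a 3′UTR at least as long as that of *PRKAR2A*, 42.8% held 1 or more and 3.51% held 3 or more. The median log2 fold change was −0.02 over these 941 genes, −0.08 with 1 or more copies and −0.13 with 3 or more, *PRKAR2A* included. The medians by copy number above are not matched for length. *CREB1*, whose 3′UTR is longer still at 8930 bases, held none. The sequence was first found in these same libraries, with *PRKAR2A* among the genes that were lower, so the overlap is no independent evidence, and a match is not shown to be a site of action.

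**Figure D4:**
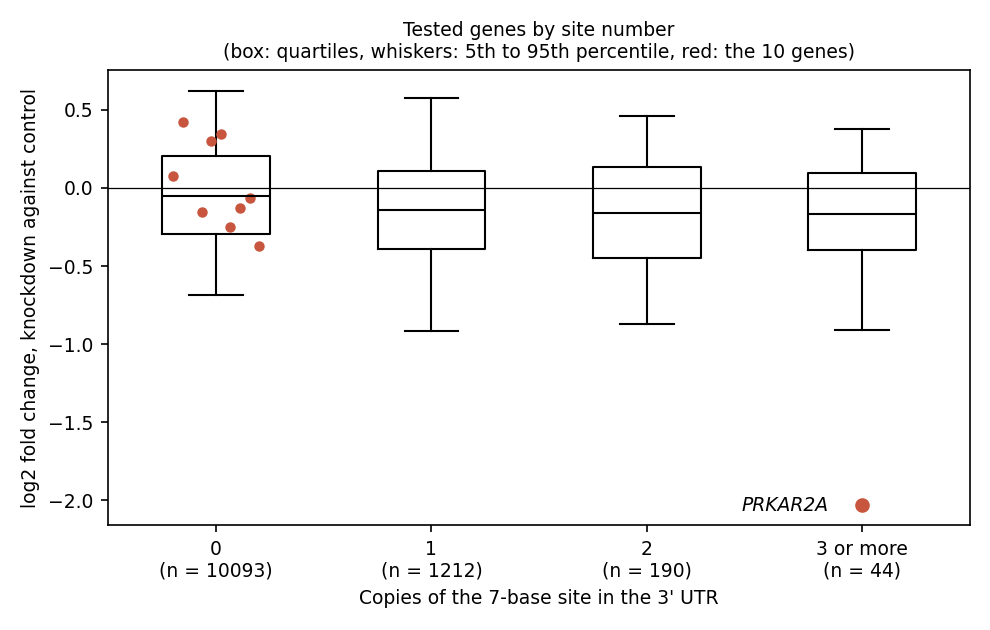
Log2 fold change, knockdown against control, of 11539 tested genes by the number of copies of the 7-base sequence in the canonical 3′UTR, as boxes of the quartiles with whiskers at percentiles 5 and 95, and the 10 genes in red. *PRKAR2A* (−2.03), chosen for its large fall, lies below the whisker of the 44 genes with 3 or more copies. The other 9 genes have no copy.

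The promoters were searched for the cAMP response element, the sequence that CREB factors bind, and the stretches that hold its full form are shown. In RefSeq promoter windows of 250 bases before to 50 bases after a start (GRCh38.p14), the palindrome TGACGTCA was in 1.85% of 35116 windows and 2.25% of 27305 genes, and the shorter TGACG, searched on both strands and contained in the palindrome, in 24.6% of windows and 28.4% of genes. Of the 9 genes matched, 2 (*CREM* and *PRKAR1A*) held the palindrome, and *PRKACA*, *PRKACB*, *PRKAR1B* and *PRKAR2A* held the shorter form alone. *CREM* had 7 windows, *PRKAR1B* 6, *PRKAR1A* and *PRKACB* 5 each, *ATF1* 3, *PRKACA* 2, and *PRKAR2A*, *PRKAR2B* and *CREB1* 1 each. A gene with more windows has more places for a match, so nothing is read from these counts beside the shares per gene. Capitals mark the palindrome in the stretches below (plus strand).
CREM at chr10:35195841-35195870: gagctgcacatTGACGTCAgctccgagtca
PRKAR1A at chr17:68512370-68512399: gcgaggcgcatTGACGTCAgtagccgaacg
The log2 fold changes of these genes were −0.06 and 0.07. Neither form was in the windows of *CREB1*, *ATF1* and *PRKAR2B*, nor in the single window of *RAB30-DT*, which says only that these letters are not in those windows. The study based its assignment of CREB1 to the *RAB30-DT* promoter on a predicted site and on ChIP, reporter and *CREB1* knockdown assays in other cell lines. This search for exact letters does not bear on those assays.

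The rest of the pathway was read from 9 lists of 104 genes, none of them among the 10, that were drawn up with results of these data known. Of the 71 that could be tested, 48 (67.6%) were lower and 23 higher, beside 53.7% lower among all tested genes. The median of these genes was −0.14 on the log2 scale, beside −0.04 for all tested genes. None passed an adjusted p of 0.05 in limma. An unadjusted p under 0.05 was found for 11 of them (15.5%), of which 9 (12.7%) were lower, where the shares over all tested genes were 16.8% and 9.7%. In 20 genes (28.2%) the groups did not overlap, of which 16 (22.5%) were lower, beside 23.3% and 13.4% of all tested genes. The lowest adjusted p was 0.0588, for *HIPK2*. With library weights (arrayWeights), under which 3218 of the 14020 tested genes were called, 13 of the 71 passed. Of the genes named here these were *ADORA2A*, *GNAZ*, *ADCY3*, *ADCY7*, *PDE2A*, *AKAP12*, *AKAP8*, *POPDC3*, *ATF7*, *HIPK2* and *CAMK1*. The weights were 3 for control 2 and 4.39 for knockdown 2, and 0.316 to 0.948 for the other libraries. Calls under these weights, here and below, thus rest mostly on control 2 and knockdown 2. Of the 33 others, below the filter, 8 were listed at 0 in all libraries.

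**Figure D5:**
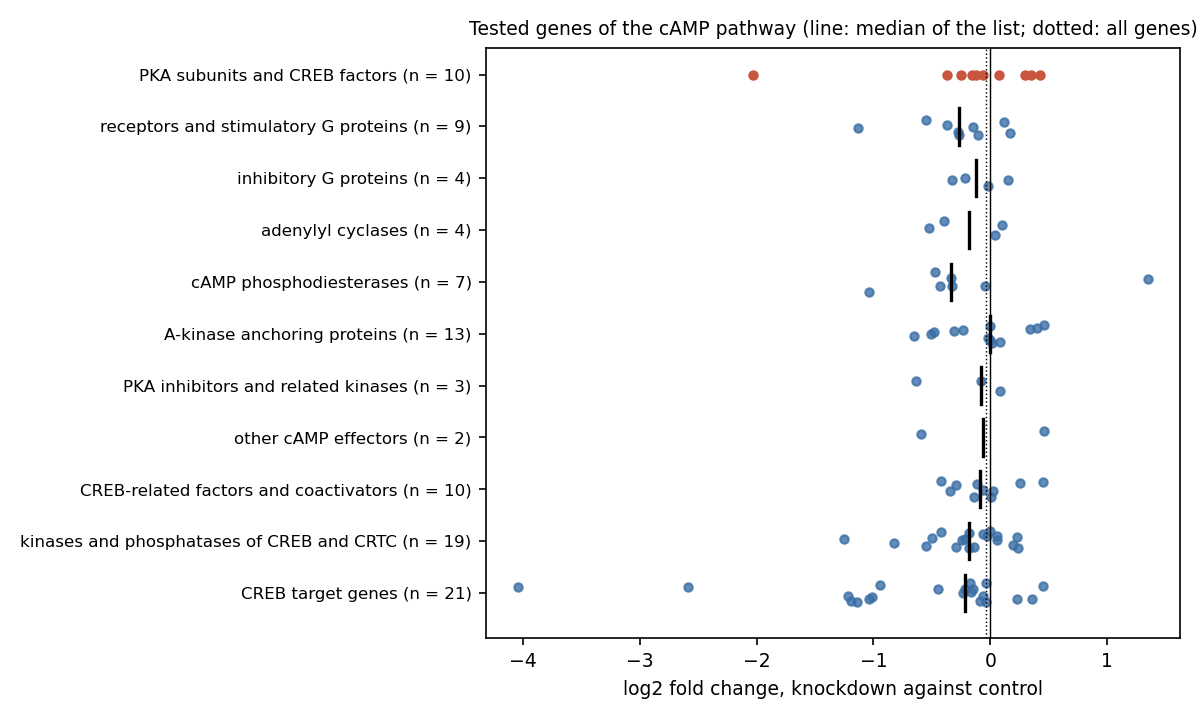
Log2 fold change, knockdown against control, of each tested gene of the pathway lists and the CREB target list (blue points, line at the list's median) and of the 10 genes (red), with the median of all tested genes as a dotted line. The list medians lie between −0.34 and −0.01, and *FOSB* and *FOS* are the leftmost points.

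At the top of the pathway, 7 of 9 tested receptors and stimulatory G proteins were lower, with a median of −0.27. *ADORA2A*, the adenosine receptor that raises cAMP, had 4.99, 11.65 and 6.23 TPM in control and 1.44, 2.54 and 4.98 TPM in knockdown replicates. The groups were separated by the step from 4.99 to 4.98 TPM, and the log2 fold change was −1.14 (adjusted p = 0.212, limma). *PTGER4*, a prostaglandin E2 receptor, was at −0.55 (SE 0.40) and *ADRB1*, a beta-adrenergic receptor, at −0.38 (SE 0.23). Of the 4 inhibitory G protein genes, 3 were lower, with *GNAZ* at −0.32, *GNAI3* at −0.22 and *GNAI2* at 0.15.

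Of 4 tested adenylyl cyclases, *ADCY3* was at 28.53, 31.93 and 34.56 TPM in control and 21.55, 24.67 and 18.87 TPM in knockdown replicates. Its groups did not overlap, and its log2 fold change of −0.53 had an adjusted p of 0.199 in limma. *ADCY7* was at −0.40 and *ADCY6* at 0.10.

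Of 7 tested phosphodiesterases, 6 were lower, with a median of −0.34. The exception was *PDE2A*, a cGMP-stimulated phosphodiesterase, with 2.87, 2.12 and 0.76 TPM in control and 8.34, 5.17 and 5.12 TPM in knockdown replicates. All knockdown libraries were above all control libraries, with a log2 fold change of 1.35 (SE 0.35, adjusted p = 0.114, limma). It passed with the replicate block (adjusted p = 0.0384), with the block and the GC trend removed together (0.0394), with library weights (0.0102) and without control 1 (0.0496). *PDE4B*, a cAMP-specific enzyme whose gene is itself induced by CREB, was at −1.04 (SE 0.73) with 9.75 TPM in control 1 and under 1 TPM in the other 5 libraries, and *PDE7A* at −0.47.

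The anchoring proteins bind the type II regulatory subunits, and their list had a median of −0.01. Of 13 tested, 8 were lower and 5 higher. *AKAP12*, a scaffold at the plasma membrane, was at −0.65 (SE 0.26), *AKAP8*, a nuclear scaffold, at −0.51 (SE 0.19) and *AKAP7* at −0.48, and the adjusted p in limma was 0.266 for *AKAP12* and 0.231 for *AKAP8*. In *AKAP12* and *AKAP8* the groups did not overlap. The PKA inhibitor genes *PKIA* and *PKIG*, whose products bind free catalytic subunits, were at −0.63 (SE 0.56) and −0.08 (SE 0.22), and the related kinase *PRKX* at 0.08. Of the other cAMP effectors, *POPDC3* was at −0.59 and *RAPGEF3*, which encodes the exchange factor EPAC1, at 0.46.

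Among 10 tested CREB-related factors and coactivators, 6 were lower and 4 higher. *ATF7* was at 0.45 (SE 0.19), *CREB5* at −0.42 (SE 0.35) and *CREBBP*, the acetyltransferase recruited by phosphorylated CREB1, at −0.35 (SE 0.19), with adjusted p of 0.277, 0.580 and 0.395 in limma. The kinases and phosphatases that act on CREB and CRTC proteins numbered 19 tested, of which 13 were lower, and their median was −0.18. In 7 of them (36.8%) the groups did not overlap, and all 7 were lower, beside 23.3% of all tested genes in either direction and 13.4% lower. *HIPK2*, a nuclear kinase, had 19.42, 17.83 and 11.16 TPM in control and 6.31, 6.26 and 5.55 TPM in knockdown replicates. The groups were well apart, with a log2 fold change of −1.25 (SE 0.24), and it passed with median-of-ratios scaling, with the GC trend removed, with the replicate block, with the block and the GC trend removed together, with library weights and without control 3. *CAMK1*, a calcium/calmodulin-dependent kinase, was at −0.82 (SE 0.25, adjusted p = 0.152 in limma), and it passed with the GC trend removed, with the replicate block, with both together, with library weights and without control 1. *STK11*, the kinase LKB1 upstream of the CRTC2 kinases, was at −0.55.

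The CREB target list held 33 genes, among them *CREM*, itself a member of the set, and *PDE4B* and *SIK1*, which are also in the pathway lists. Of the 33 genes, 21 could be tested. Of these, 18 (85.7%) were lower, beside 53.7% of all tested genes, and the median was −0.21. None was called in limma, and 4 (19%) had an unadjusted p under 0.05, beside 16.8% of all tested genes. In 4 (19%) the groups did not overlap, of which 3 (14.3%) were lower, beside 23.3% and 13.4% of all tested genes. The lowest adjusted p of the list was 0.152 in limma, for *CCND1*, which was higher after knockdown. It had 250.88, 300.32 and 295.94 TPM in control and 367.21, 379.54 and 406.06 TPM in knockdown replicates. Its groups did not overlap, and its log2 fold change was 0.45 (SE 0.13). The largest differences were in immediate early genes, which respond to CREB1 but also to serum response factor. *FOSB* had 6.93, 10.58 and 428.0 TPM in control and 0.61, 1.59 and 1.11 TPM in knockdown replicates. *FOS* had 22.24, 29.84 and 411.45 TPM in control and 9.08, 11.4 and 9.83 TPM in knockdown replicates. In both, the groups did not overlap and control 3 lay far above the other 2 control libraries. *FOSB* had a log2 fold change of −4.04 (adjusted p = 0.180 in limma), and it was −2.22 without control 3 (adjusted p = 0.0303) and −2.70 with library weights (adjusted p = 0.0207). For *FOS* it was −2.59 (adjusted p = 0.225 in limma), −1.28 without control 3 (adjusted p = 0.0456) and −1.67 with library weights (adjusted p = 0.0337). Under every other alternative neither passed. *EGR1* was at 207.93 TPM in control 3 and at 14.47 to 17.17 TPM in the other 5 libraries. Control 3 was also far above every other library in *JUNB* (102.86 TPM), *PER1* (72.33 TPM), *DUSP1* (418.85 TPM), *MCL1* (346.66 TPM), *ODC1* (405.48 TPM) and *ATF3* (58.58 TPM). In each of these genes the groups overlapped.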

How the data were processed

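Poly-A RNA-seq libraries of SK-Hep-1 cells, 3 control and 3 knockdown, were analysed from 1 table per library. The authors deposited TPM values per gene; their methods name fastp, STAR and RSEM, while the submitters' processing notes list fastp and HISAT2 2.0.5, with hg38. All 62700 gene IDs matched GENCODE 44. Depth is unknown, since TPM keeps no counts, so no counting interval is given.

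Values were taken as log2(TPM + 1), genes with a mean under 1 TPM were removed, and groups were compared in limma 3.58.1 (lmFit, eBayes with trend, R 4.3.3) over 14020 genes, with Benjamini-Hochberg adjustment at 0.05. Fold changes on this scale understate those of low genes. P-values measure the spread between libraries, which may be technical. The fit was tested on simulated data. Alternatives were a pseudocount of 0.1, no filter, median-of-ratios scaling, removal of the GC trend (loess, span 0.3), a replicate block, library weights (arrayWeights) and leaving out each library. Named were the 10 members, *RAB30-DT*, the 3 genes of each list with the largest absolute log2 fold change, and the 3 genes most like *PRKAR2A* and *CREB1*; the genes near *PRKAR2A* and *PRKAR2A*'s overlapping genes were named by position. *CCND1*, further CREB targets with control 3 far above the rest, and cell type markers were named for their values. Members and lists were chosen with earlier results of these data known. Sequences came from hg38 with GENCODE 44 and from RefSeq promoters (GRCh38.p14).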

Additional observations from a re-analysis of the deposited data

How the results depend on the processing

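Over all genes, 146 were called (52 higher, 94 lower) and 129 with median-of-ratios scaling (60 higher, 69 lower), which moved the median by 0.02. The count was 13 with no filter, 1191 with the GC trend removed, 861 with the replicate block, 1028 with the replicate block and the GC trend removed, 3218 with arrayWeights and 12 to 489 with each library left out. Of the 10 genes, 1 (*PRKAR2A*) was called, 0 with no filter, and 0 to 1 with each library left out (1 without control 1, 0 without any other). Of the pathway lists, 0 genes were called at first, 1 with median-of-ratios scaling, 3 with the GC trend removed, 3 with the replicate block, 4 with both, 13 with arrayWeights, and 0 to 2 with each library left out (2 without control 1, 1 without control 3). Of the CREB targets, 0 were called, 1 with the GC trend removed, 1 with the replicate block and the GC trend removed, 4 with arrayWeights, and 0 to 2 with each library left out (2 without control 3). Each call with the GC trend removed, with or without the block, was of a gene that was higher after knockdown. With arrayWeights, 1 of the 4 was higher. The causes were not tested. Same-numbered libraries deviated together with r = 0.41, 0.0359 and 0.279. The value was −0.355 for control 1 with knockdown 3 and −0.316 for control 3 with knockdown 1. Control 2 ran closer to knockdown 3 (r = 0.111) than to knockdown 2. With the GC trend removed, the same-numbered values were 0.187, 0.0159 and 0.118. These values do not settle whether the numbers mark pairs. The main fit did not take them as pairs, and the replicate block is the alternative that does. The log2 fold changes of *PRKAR2A*, *CREB1* and *RAB30-DT* kept their direction and, apart from the call of *PRKAR2A*, their side of the threshold under every alternative. *PRKACA* was at 0.04 with arrayWeights against 0.30. The checks of r and of the *PRKAR2A* share were chosen after seeing the data. With 3 libraries a group, the spread of low-GC and high-GC genes between control libraries limits what can be seen for *PRKACB*, *PRKAR2B*, *PRKAR1B* and *CREB1*.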
